A study of Mus musculus with 6 samples.

Results

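Interleukin-1 family genes were followed in ischemic muscle of mice with and without the G protein-coupled receptor gene Gpr174. The 9 genes, Il1a, Il1b, Il1rn, Il1r1, Il1r2, Il1rap, Il33, Il1rl1 and Il18, were taken by name out of the 18089 genes in the deposited table. No threshold on their values was used, but earlier results of these data were known when they were chosen. All 9 passed the filter on low counts. The groups were 3 WT and 3 Gpr174-/Y mice, the latter labelled GPR174-KO and lacking the X-linked gene in every cell. All were male C57BL/6 mice aged 8 to 10 weeks, and the gastrocnemius was collected 7 days after hind limb ischemia (HLI). Whole muscle was used without sorting of cells, and each of the 6 libraries came from an ischemic muscle, so every value is a difference between genotypes after injury.

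Members of the interleukin-1 family are alarm and inflammation signals. IL-1α, which is held in the cell until damage, and IL-1β, which caspase-1 cuts to its active form, bind the receptor IL1R1. IL1R1 then recruits IL1RAP and signals through MYD88 to NF-κB. The antagonist IL-1RA, made from Il1rn, occupies IL1R1 without signalling, and IL1R2 is a decoy that binds the ligand and has no signalling domain. IL-33, stored in nuclei, is read by ST2, the product of Il1rl1, together with IL1RAP, and a soluble form of ST2 takes IL-33 away from the cell. IL-18, also cut by caspase-1, has receptor chains of its own. In injured muscle, infiltrating macrophages are a known source of IL-1β, and stromal cells a known source of IL-33, which sustains regulatory T cells.

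Of the 9 genes, 6 were higher in Gpr174-/Y muscle (Il1b, Il1rn, Il1r1, Il33, Il1rl1 and Il18), 1 was lower (Il1a) and 2 were not called (Il1r2 and Il1rap). A call is an adjusted p under 0.05 in edgeR's quasi-likelihood test with Benjamini-Hochberg adjustment over 14395 genes. In the same test 54.6% of all genes were called, 27.0% higher and 27.6% lower, so a call by itself did not set these genes apart. The median log2 fold change was 0.78 over the 9 genes and 0.00 over all genes tested. A further limit, an absolute log2 fold change above 1, was passed by Il1b, Il1rn and Il1r1, all higher, against 3.45% of all genes higher and 4.84% lower. Levels did not overlap between the groups for 7 of the 9 genes, against 65.6% of all genes. In bulk muscle, fewer cells of a type and less RNA per cell cannot be told apart.

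Total counts ranged from 18417107 to 18695036 in WT and from 19173051 to 19394505 in Gpr174-/Y libraries. Levels are given as CPM after TMM scaling, a share of the library's reads. The smallest number taken as detectable, 3 counts, was 0.155 to 0.163 CPM before TMM scaling. This limit covers counting error only. Gpr174 itself had 8, 2 and 5 counts in WT replicates 1 to 3 and 1, 0 and 0 in Gpr174-/Y replicates 1 to 3, with an adjusted p of 0.0176 in the fit without the filter. Scaling by total counts raised the median of all genes by 0.28 on the log2 scale, and changes here are relative to the TMM scale. In both groups, replicate 2 lay between replicates 1 and 3 for most of 6543 abundant genes (83.5% in WT and 71.2% in Gpr174-/Y). The cause of this order was not tested. If replicate 2 were not independent of the other replicates, the SE and p-values given here would be too small. When only replicates 1 and 3 were compared, 0 of the 9 genes passed the adjusted threshold in edgeR, although 6 had an unadjusted p under 0.05. The labels name separate samples and no batch, and p-values measure the spread between these libraries only.

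**Figure D1:**
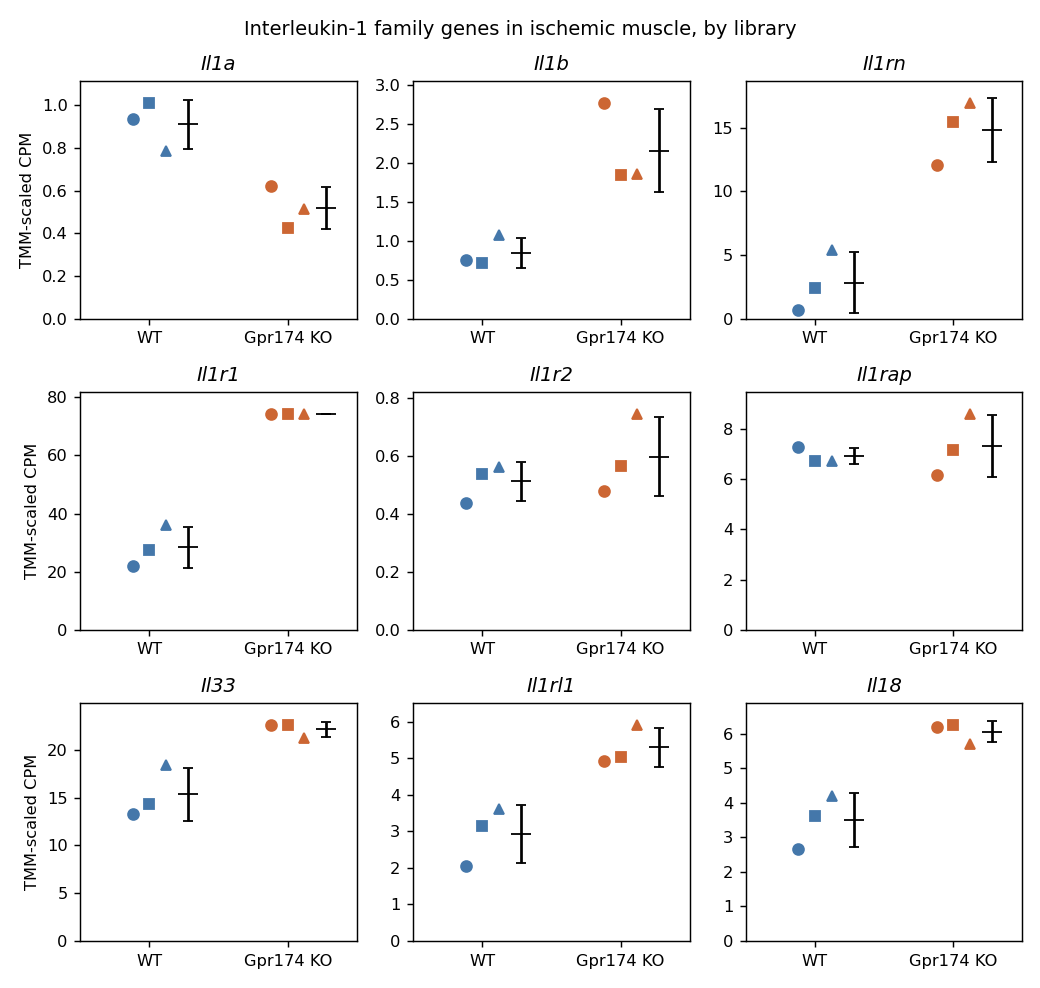
Level of each interleukin-1 family gene in TMM-scaled CPM (vertical axes, each from 0) in the 3 WT and 3 Gpr174-/Y (Gpr174 KO) libraries. Circles, squares and triangles are replicates 1, 2 and 3, and the dash with bars is the mean and SD; 7 genes do not overlap between groups, and Il1r2 and Il1rap do.

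Sequences are shown for Il33 and Il1rl1, since each has more than 1 start of transcription and the results below turn on which transcript the reads were assigned to. The windows are RefSeq promoters on GRCm38.p6, from 250 bases before to 50 bases after a start, and the 9 genes had 14 such windows. Capitals mark matches to the C/EBP motif TTNNGNAA, searched on both strands, or to the TATA motif TATAAA, searched on the plus strand of the promoter.
Il33 first start, chr19:29924863-29925162, plus strand: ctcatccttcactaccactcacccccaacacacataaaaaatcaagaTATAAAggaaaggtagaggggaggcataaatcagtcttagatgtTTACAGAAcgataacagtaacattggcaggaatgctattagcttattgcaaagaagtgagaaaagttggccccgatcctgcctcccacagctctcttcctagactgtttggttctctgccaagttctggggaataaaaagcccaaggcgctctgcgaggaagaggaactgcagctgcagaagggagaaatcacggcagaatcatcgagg
Il33 second start, chr19:29945540-29945839, plus strand: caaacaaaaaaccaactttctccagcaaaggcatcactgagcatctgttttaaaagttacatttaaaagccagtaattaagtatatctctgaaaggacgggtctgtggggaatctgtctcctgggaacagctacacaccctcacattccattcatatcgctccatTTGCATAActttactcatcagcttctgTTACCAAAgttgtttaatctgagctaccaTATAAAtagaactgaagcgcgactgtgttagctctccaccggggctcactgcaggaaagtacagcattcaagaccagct
The first window lies at the start of transcript NM_133775.3 and the second at that of NM_001164724.2, which begins 20676 bases downstream in the annotation used. Counted from the start, TATAAA was found at position -29 in the second window and at -203 in the first. C/EBP matches lay at -85 and -58 in the second window and at -159 in the first. The coding sequence is the same in both transcripts, 266 residues, and they differ in the 5′ leader.
Il1rl1 first start, chr1:40429320-40429619, plus strand: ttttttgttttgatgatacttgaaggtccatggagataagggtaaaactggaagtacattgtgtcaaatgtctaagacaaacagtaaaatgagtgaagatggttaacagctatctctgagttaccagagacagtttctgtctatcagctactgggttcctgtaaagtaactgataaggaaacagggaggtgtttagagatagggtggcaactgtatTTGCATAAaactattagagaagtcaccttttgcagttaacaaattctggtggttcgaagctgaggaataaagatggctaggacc
Il1rl1 second start, chr1:40439379-40439678, plus strand: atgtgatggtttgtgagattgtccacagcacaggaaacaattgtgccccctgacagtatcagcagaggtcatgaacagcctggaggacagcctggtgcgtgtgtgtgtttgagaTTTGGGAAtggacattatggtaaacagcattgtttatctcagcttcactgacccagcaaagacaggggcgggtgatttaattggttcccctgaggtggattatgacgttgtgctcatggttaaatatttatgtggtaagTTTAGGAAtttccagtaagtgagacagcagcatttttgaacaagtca
In Il1rl1 the second window lies near the starts of NM_001025602.3 and NM_010743.3, which begin 10057 and 10206 bases downstream of the first start in the annotation. It held 2 C/EBP matches, against 1 in the first window, and neither held TATAAA. C/EBP matches were found in 10 of the 14 windows and in 40.7% of all 32851 promoters of this length. Windows 2 and 3 of Il1rn overlap and hold the same C/EBP matches, so these sites count in both. TATAAA was found in 4 of 14 and in 8.32% of all, AP-1 (TGANTCA) in 2 of 14 and 7.81%, and the κB consensus in 1 of 14 and 8.46%. The EGR motif (GCGTGGGCG) was found in 0 of 14 and in 0.612% of all. These are matches of letters in short windows and not sites of binding.

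Among the ligands, Il1b rose and Il1a fell. Il1b had 0.747, 0.714 and 1.07 CPM in WT replicates 1 to 3 and 2.77, 1.84 and 1.86 CPM in Gpr174-/Y replicates 1 to 3. Every Gpr174-/Y library was above every WT library, and the log2 fold change was 1.34 (SE 0.26, adjusted p = 0.00560). Counts were low, from 12 to 19 in WT and from 39 to 58 in Gpr174-/Y. Il1a had 0.933, 1.01 and 0.787 CPM in WT and 0.621, 0.424 and 0.512 CPM in Gpr174-/Y, with 9 to 17 counts in any library. The groups did not overlap, and the log2 fold change was -0.80 (SE 0.23, adjusted p = 0.0277). The call on Il1a was held in 6 of 14 alternatives. With total counts its log2 fold change was -0.53 (adjusted p = 0.135), and without WT replicate 1, WT replicate 2, Gpr174-/Y replicate 2 or Gpr174-/Y replicate 3 the adjusted p was 0.0616, 0.104, 0.108 and 0.0599.

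Il1a and Il1b are neighbours on chromosome 2, with no other protein-coding gene between them in a span of 71.6 kb, and they moved in opposite directions. Windows of both genes held TATAAA, at -32 in Il1a and at -31 in Il1b. Both also held a C/EBP match, at -43 in Il1a and at -91 in Il1b. The AP-1 match of Il1a, at -12, had no counterpart in the window of Il1b. Any link between these matches and the directions of change was not tested.

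Il18 rose as well. It had 2.68, 3.63 and 4.21 CPM in WT and 6.21, 6.26 and 5.72 CPM in Gpr174-/Y. The lowest Gpr174-/Y library was above the highest WT library, and the log2 fold change was 0.78 (SE 0.16, adjusted p = 0.00653). WT replicate 3 was the WT library nearest to the Gpr174-/Y group. The same was true of Il1b, Il1rn, Il1r1, Il33 and Il1rl1.

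Il33, the nuclear alarmin, showed a smaller increase. It had 13.2, 14.3 and 18.4 CPM in WT and 22.6, 22.6 and 21.3 CPM in Gpr174-/Y. The 3 Gpr174-/Y libraries lay close together above a wider WT group, with a log2 fold change of 0.53 (SE 0.12, adjusted p = 0.0101). It was 0.80 with total counts and 0.80 with limma on log2(FPKM + 0.1), each over 1.5 times the value on the TMM scale.

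In the expected counts, most of the increase in Il33 was assigned to 1 transcript. The expected counts of NM_133775.3 were 213, 240 and 308 in WT and 296, 223 and 332 in Gpr174-/Y, and the groups overlapped. Its log2 fold change in the fit over transcripts was -0.13 (adjusted p = 0.786). NM_001164724.2, which starts at the second window above, was listed at 0 in all 3 WT libraries and at 177, 242 and 125 expected counts in Gpr174-/Y (adjusted p = 0.0179). It passed the filter on low counts only through the Gpr174-/Y libraries, so this p-value is not taken as support. It took 37.4%, 50.5% and 27.5% of the expected counts of Il33 in Gpr174-/Y replicates 1 to 3. Only 69 of its 2544 annotated bases are absent from NM_133775.3, so a value of 0 is an estimate of how shared reads were divided. No fold is given for that reason.

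Il1rn, which encodes the antagonist, changed the most of the 9 genes in log2 fold change. It had 0.685, 2.38 and 5.39 CPM in WT and 12.0, 15.5 and 17.0 CPM in Gpr174-/Y. WT replicate 3 held several times the level of WT replicate 1, and all Gpr174-/Y libraries were above it. The log2 fold change was 2.37 (SE 0.48, adjusted p = 0.00648), from 1.93 without WT replicate 1 to 3.26 without WT replicate 3. Most expected counts went to NM_001039701.3, whose matched transcript encodes 178 residues, the length of the secreted precursor: 0, 40.1 and 78.5 in WT and 184, 289 and 294 in Gpr174-/Y. NM_031167.5, matched to the intracellular form of 159 residues, had 0, 0 and 17.4 in WT and 40.6, 38.4 and 71.1 in Gpr174-/Y. Neither transcript was called by itself (adjusted p = 0.391 and 0.442), in a fit that finds few changes at this spread between libraries.

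The ratio of antagonist to agonist transcripts was compared as well. TPM is scaled for length and allows levels of different genes to be compared. Il1rn divided by the sum of Il1a and Il1b was 0.281, 0.923 and 1.81 in WT and 2.12, 4.05 and 4.12 in Gpr174-/Y. The ratio was thus above 1 in 1 of 3 WT libraries and in 3 of 3 Gpr174-/Y libraries, without overlap. The geometric mean was 4.23-fold higher in Gpr174-/Y (p = 0.1 in a 2-sided exact permutation test, which cannot give less with 3 libraries against 3). The log2 difference of 2.08 moved to 1.35 without WT replicate 1 and to 2.69 without WT replicate 3.

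Il1r1, the signalling receptor, had the lowest adjusted p of the 9 genes. It had 22.0, 27.3 and 36.0 CPM in WT and 74.3, 74.3 and 74.1 CPM in Gpr174-/Y. The Gpr174-/Y libraries were nearly equal and each was above every WT library, and the log2 fold change was 1.38 (SE 0.16, adjusted p = 0.00119). Of its 11 listed transcripts, XM_006495721.4 took most expected counts, with 235, 345 and 502 in WT and 942, 936 and 1141 in Gpr174-/Y (log2 fold change 1.20, SE 0.26, adjusted p = 0.0450).

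Il1r2, the decoy, was low in all libraries. It had 0.436, 0.536 and 0.562 CPM in WT and 0.478, 0.565 and 0.744 CPM in Gpr174-/Y, from 7 to 16 counts a library. The groups overlapped, with a log2 fold change of 0.22 (SE 0.27, adjusted p = 0.620). The TPM ratio of Il1r2 to Il1r1 was 0.0588, 0.0649 and 0.0599 in WT and 0.0247, 0.0300 and 0.0347 in Gpr174-/Y. Decoy transcripts per signalling receptor transcript were thus lower in every Gpr174-/Y library, 0.482 of the WT value (p = 0.1, 2-sided exact permutation test).

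Il1rap, the accessory chain shared by IL1R1 and ST2, had 7.28, 6.73 and 6.74 CPM in WT and 6.16, 7.16 and 8.61 CPM in Gpr174-/Y. The groups overlapped, with a log2 fold change of 0.08 (SE 0.13, adjusted p = 0.632). It turned to -0.05 without Gpr174-/Y replicate 3. Nearly all expected counts, 111 to 178 a library, went to NM_008364.2, which encodes the membrane form of 570 residues. The soluble form, NM_134103.2, had 1.38 to 7.11, and the TPM ratio of soluble to membrane form overlapped between groups (2-sided exact permutation test, p = 0.4).

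**Figure D2:**
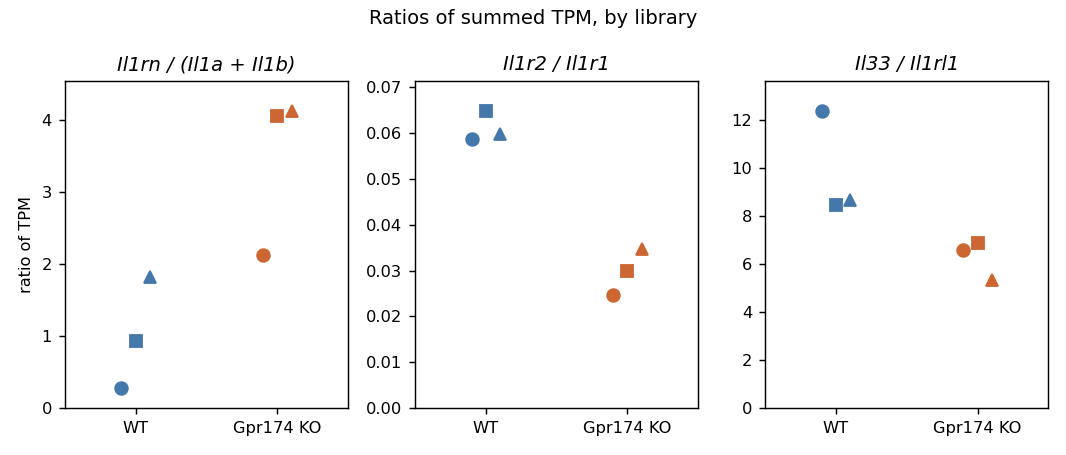
Ratios of TPM (vertical axes, from 0) in each WT and Gpr174-/Y (Gpr174 KO) library, with circles, squares and triangles for replicates 1, 2 and 3. Il1rn over Il1a plus Il1b is higher in all Gpr174-/Y libraries (2.12 to 4.12 against 0.281 to 1.81), and Il1r2 over Il1r1 and Il33 over Il1rl1 are lower in all of them.

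Il1rl1, which encodes ST2, had 2.05, 3.15 and 3.60 CPM in WT and 4.92, 5.04 and 5.91 CPM in Gpr174-/Y. The groups did not overlap, and the log2 fold change was 0.84 (SE 0.20, adjusted p = 0.0110), reaching 1.30 with limma on log2(FPKM + 0.1). The TPM ratio of the ligand Il33 to Il1rl1 was 12.4, 8.47 and 8.69 in WT and 6.58, 6.89 and 5.33 in Gpr174-/Y. In TPM the ratio was lower in every Gpr174-/Y library (0.642 of the WT ratio, p = 0.1, 2-sided exact permutation test). This rests on the length scaling of TPM, since with expected counts the log2 difference was -0.34 instead of -0.64 (p = 0.2 in the same exact permutation test).

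Il1rl1 makes a long membrane receptor and a short soluble one, which end in different last exons. NM_010743.3, matched to the soluble form of 337 residues, was listed at 0 in all WT libraries and at 36.2, 51.3 and 36.2 expected counts in Gpr174-/Y (adjusted p = 0.0236). It too passed the filter only through the Gpr174-/Y libraries, and its p-value is not taken as support. NM_001294171.1, with the same coding sequence, had 3.76, 7.35 and 17.2 in WT and 25.7, 0 and 31.0 in Gpr174-/Y. NM_001025602.3, the long form of 567 residues, was listed at 0 in 5 of 6 libraries. Single transcripts therefore gave no ratio of soluble to long form.

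Sums over transcripts of like length were formed after the values were seen, and are given without a test. The 2 short transcripts, of effective length 3012 and 2870 bases, summed to 3.76, 7.35 and 17.2 expected counts in WT and 61.9, 51.3 and 67.2 in Gpr174-/Y. The 3 long ones are NM_001025602.3, annotated at 5302 bases, and the predicted records XM_006495741.1 and XM_006495744.2, of effective length 5160 and 5154. They summed to 29.1, 46.0 and 47.0 in WT and 41.0, 55.9 and 59.4 in Gpr174-/Y. The short class did not overlap between groups and the long class did. In TPM, the ratio of short to long was 0.228, 0.292 and 0.663 in WT and 2.65, 1.56 and 1.97 in Gpr174-/Y. The coding sequence of the predicted records was not checked, and they enter the long class by length only.

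**Figure D3:**
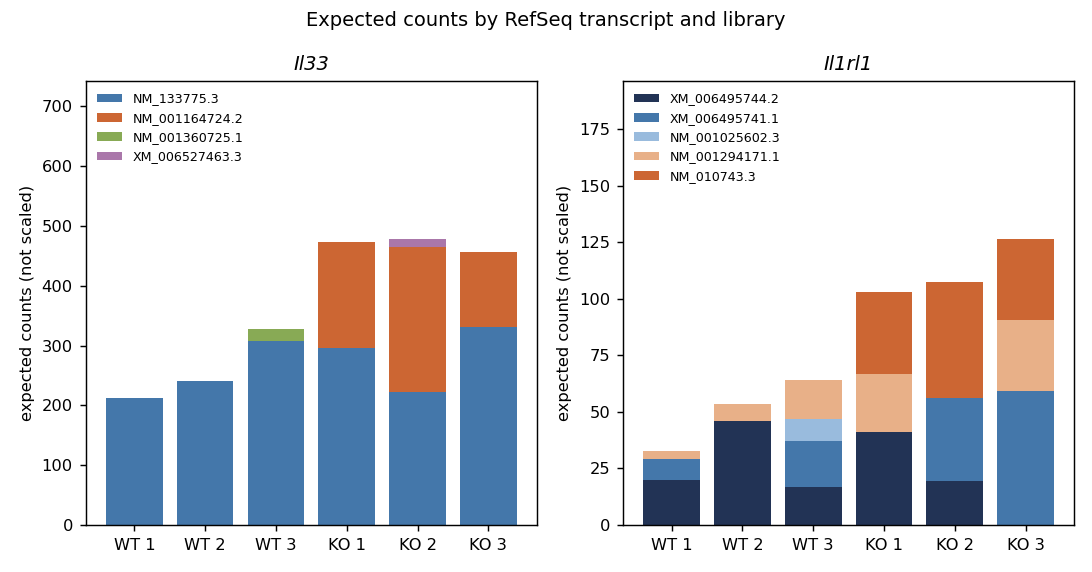
Expected counts (vertical axes, not scaled) of Il33 (left) and Il1rl1 (right) in each library, stacked by RefSeq transcript; KO stands for Gpr174-/Y. NM_001164724.2 and NM_010743.3 have 0 in the 3 WT libraries and 125 to 242 and 36.2 to 51.3 in the Gpr174-/Y libraries; in Il1rl1, orange shades are the short class and blue shades the long class.

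Calls on single transcripts were less firm than those on genes. The 9 genes had 41 listed transcripts, of which 21 were tested and 33 were at 0 in at least 1 library. The 3 named above as called were NM_001164724.2, NM_010743.3 and XM_006495721.4, all higher, against 12.4% of 35524 transcripts called and 6.01% called higher. NM_001164724.2 and NM_010743.3 entered the test only through the Gpr174-/Y libraries. No member transcript was called without WT replicate 2 or without any 1 of the Gpr174-/Y replicates (3 had an unadjusted p under 0.05 in each of these fits). Over the alternatives, the adjusted p ranged from 0.0155 to 0.207 for NM_001164724.2, from 0.0198 to 0.305 for NM_010743.3 and from 0.0216 to 0.167 for XM_006495721.4.

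The order of levels in TPM differed between the groups. In WT muscle Il33 led with 10.6 ± 2.42 TPM (SD, n = 3), followed by Il1r1 with 10.4 ± 3.14, and these overlapped. Il18 followed with 5.94 ± 1.66, then Il1rap with 2.67 ± 0.102, Il1rn with 2.05 ± 1.79, Il1rl1 with 1.13 ± 0.415 and Il1b with 1.12 ± 0.315. Neighbours among these last 4 overlapped. Il1a, with 0.793 ± 0.0777, overlapped Il1r2, with 0.640 ± 0.190, at the bottom. In Gpr174-/Y muscle Il1r1 led with 35.6 ± 1.21 TPM and did not overlap Il33, with 19.9 ± 0.233. Il18 with 14.1 ± 0.547 overlapped Il1rn with 13.7 ± 2.76, and Il1rap with 3.75 ± 0.779 overlapped Il1b with 3.57 ± 0.724, which overlapped Il1rl1 with 3.21 ± 0.437. Il1r2 with 1.06 ± 0.215 was above Il1a with 0.600 ± 0.102, the lowest.

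The receptor genes form a run on chromosome 1, and its members did not all move in 1 direction. In chromosomal order over 467 kb, the protein-coding genes are Il1r2, Il1r1, Il1rl2, Il1rl1, Il18r1 and Il18rap. Il1rl2, the receptor for IL-36, was higher (log2 fold change 0.61, SE 0.06, adjusted p = 0.000870), as were Il1r1 and Il1rl1 on either side of it. Il18r1, the ligand-binding chain for IL-18, had 30, 32 and 33 counts in WT and 16, 20 and 26 in Gpr174-/Y and was lower (log2 fold change -0.94, SE 0.19, adjusted p = 0.00661). Transcripts of IL-18 and of its binding chain thus moved in opposite directions. Il18rap, its accessory chain, was not called (log2 fold change 0.05, adjusted p = 0.820).

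**Figure D4:**
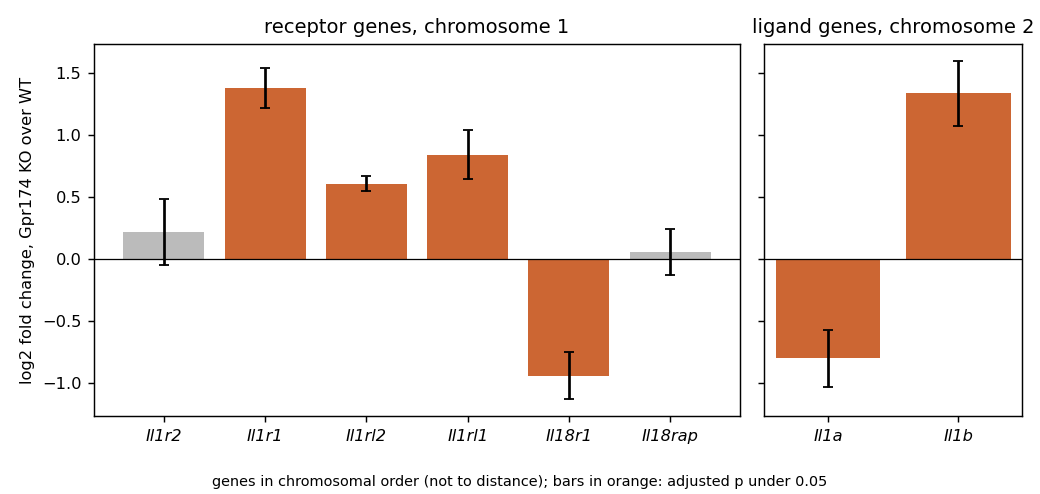
Log2 fold change of Gpr174-/Y (Gpr174 KO) over WT, with SE as error bars, for the receptor genes of chromosome 1 and the ligand genes of chromosome 2 in chromosomal order, distances not to scale. Orange bars passed an adjusted p of 0.05, and grey bars did not; Il18r1 and Il1a point down beside neighbours that point up.

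Of 12 further family genes, 6 were tested, with 1 higher, 2 lower and 3 not called (median log2 fold change 0.12). Of all genes tested, 27.0% were called higher and 27.6% lower, and counts in the lists below have the same background. Il1rl2 and Il18r1 are given above. Sigirr, an inhibitory member of the receptor family, was the other lower gene, with 88, 95 and 95 counts in WT and 61, 57 and 61 in Gpr174-/Y (log2 fold change -0.96, SE 0.10, adjusted p = 0.000870). Il18bp, a secreted trap for IL-18, had 165, 226 and 338 counts in WT and 325, 411 and 450 in Gpr174-/Y and was not called (adjusted p = 0.183).

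Genes for the maturation and release of the ligands were mostly higher, with 10 of 14 higher, 2 lower and 2 not called (median log2 fold change 0.56). Over all genes, 27.0% were higher and 27.6% lower. Mefv, which encodes the inflammasome sensor pyrin, had 34, 63 and 106 counts in WT and 238, 240 and 258 in Gpr174-/Y (log2 fold change 1.54, SE 0.29, adjusted p = 0.00480). Nlrp3, the sensor that serves IL-1β, rose by 0.70 on the log2 scale (adjusted p = 0.0314), its adaptor Pycard by 0.80 (adjusted p = 0.00201) and the protease Casp1 by 0.59 (adjusted p = 0.0298). Gsdmd, which forms the pore through which the ligands leave, was not called (log2 fold change 0.44, adjusted p = 0.0936). The lower genes were Txnip (-0.48) and Nek7 (-0.24). With total counts Nek7 turned to 0.04, and of the 14 genes 11 were called higher and 0 lower.

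Signalling genes shared by these receptors were split. Of 19, 6 were higher, 3 lower and 10 not called, with a median of 0.06, against 27.0% of all genes higher and 27.6% lower. The adaptor Myd88 had a log2 fold change of 0.41 (adjusted p = 0.0362), the kinase Irak4 0.38 (adjusted p = 0.00596) and Irak3, an inhibitory kinase, 0.56 (adjusted p = 0.0214). The other higher genes were the NF-κB subunits Rel (0.46), Rela (0.30) and Nfkb1 (0.29). Map3k7 was lower (-0.35), as were Traf6 (-0.23) and Ikbkg (-0.20), and the last 2 turned to 0.04 and 0.07 with total counts. With that scaling 14 of the 19 were called higher and 0 lower.

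Of 9 feedback inhibitors of the pathway, 4 were higher, 2 lower and 3 not called (median 0.16), against 27.0% of all genes higher and 27.6% lower. Socs3, an inhibitor of cytokine receptor signalling, had 165, 212 and 323 counts in WT and 916, 935 and 965 in Gpr174-/Y (log2 fold change 1.69, SE 0.18, adjusted p = 0.00102). Nfkbia, the classical inhibitor of NF-κB, was not called (0.16, adjusted p = 0.154). Dusp1, a phosphatase of MAP kinases, was lower (-0.82, adjusted p = 0.000871).

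Genes that IL-1 is known to induce in many cells were a list of 18, of which 12 were tested, with 7 higher, 1 lower and 4 not called (median 0.68). The shares over all genes were 27.0% higher and 27.6% lower. Ccl2, a monocyte chemokine, had 25, 46 and 92 counts in WT and 356, 331 and 307 in Gpr174-/Y (log2 fold change 2.29, SE 0.32, adjusted p = 0.00190). Il6 had 0, 2 and 5 counts in WT and 15, 13 and 16 in Gpr174-/Y (adjusted p = 0.0141). Without WT replicate 2 the adjusted p of Il6 in edgeR was 0.0596. On their WT counts alone Il6 and Lcn2 would not have passed the filter, which favours genes high in Gpr174-/Y in the count of 7. Lcn2, which encodes an iron-trapping protein, had a log2 fold change of 1.79 (adjusted p = 0.00175) and the cytokine gene Lif one of 1.75 (adjusted p = 0.000829). Nos2, the inducible nitric oxide synthase, went the other way, with 362, 333 and 239 counts in WT and 188, 195 and 205 in Gpr174-/Y (log2 fold change -1.01, SE 0.18, adjusted p = 0.00436). Saa3, an acute phase gene removed by the filter, had 2 counts in each WT library and 6, 7 and 8 in Gpr174-/Y (adjusted p = 0.0384 in the edgeR fit without the filter). These genes answer to other signals too, and their dependence on IL-1 was not tested.

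Genes of cells that respond to IL-33 were mostly too low to test. Of 13, 12 were listed and 4 were tested, with 1 higher (Arg1), 1 lower (Rora) and 2 not called. Over all genes, 27.0% were called higher and 27.6% lower, so these counts do not set the list apart. The median was -0.21 and turned to 0.06 with total counts. Arg1, an arginase of type 2 macrophages and lymphoid cells, had 5, 9 and 15 counts in WT and 52, 52 and 70 in Gpr174-/Y (log2 fold change 2.25, SE 0.30, adjusted p = 0.00165). On its WT counts alone Arg1 would not have passed the filter. Foxp3, which marks regulatory T cells, had 6 to 13 counts a library and was removed by the filter.

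**Figure D5:**
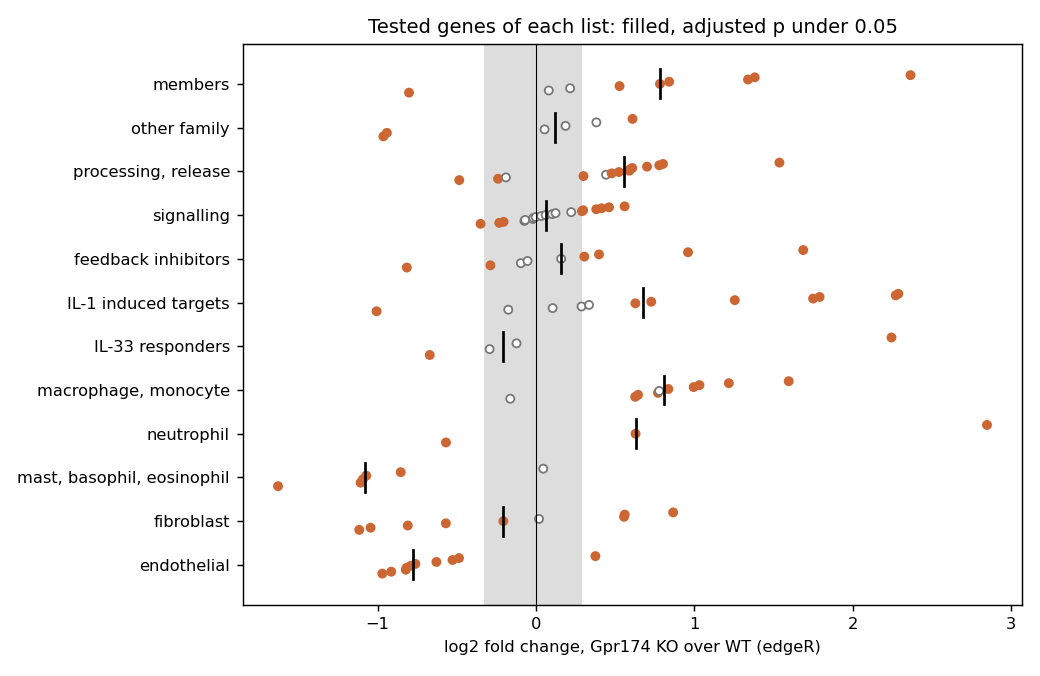
Log2 fold change of Gpr174-/Y over WT (horizontal axis) for the tested genes of 12 lists. Filled points passed an adjusted p of 0.05, open points did not, the black bar is the median of a list, and the grey band spans the quartiles of all 14395 genes (-0.33 to 0.29); the 9 members and the macrophage markers have medians of 0.78 and 0.81.

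Markers of several cell types moved with these genes, and their part in the results was not tested. For every marker list, the background over all genes tested was 27.0% called higher and 27.6% called lower. Of 10 macrophage and monocyte markers, 8 were higher and 2 not called (median 0.81), and their summed level was 1081 to 1588 CPM in WT and 2599 to 2603 CPM in Gpr174-/Y. The largest were Itgam (1.60), Cd68 (1.22) and Cx3cr1 (1.03), and WT replicate 3 was again the highest WT library. None of the 10 was at 0. The neutrophil list had 3 of 10 genes tested, with 2 higher and 1 lower, and summed to 22.5 to 29.4 CPM in WT and 33.5 to 36.9 CPM in Gpr174-/Y. Most of the sum was Csf3r, with 14.9 to 23.7 CPM in WT and 27.8 to 30.4 CPM in Gpr174-/Y. The lower gene was Cxcr2, with 99, 103 and 78 counts in WT and 76, 76 and 86 in Gpr174-/Y. Its log2 fold change was -0.57 (adjusted p = 0.0193 in edgeR). The defining markers of the list were scarce, with Ly6g at 0 or 1 count and S100a8 at 4 to 15 in any library. Mmp8 had 2 to 3 counts in WT and 21 to 29 in Gpr174-/Y (adjusted p = 0.000888 in edgeR). Mmp8 passed the filter only through the Gpr174-/Y libraries and is counted among the 2 higher genes.

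A list of markers of mast cells, basophils and eosinophils, cell types that carry ST2, was lower in most of its tested mast cell genes, Kit excepted. Of 12 genes, 6 were tested, with 5 lower and 1 not called (median -1.08), from 38.7 to 56.9 CPM summed in WT and from 34.9 to 37.7 CPM in Gpr174-/Y. Kit was the gene not called (log2 fold change 0.05, adjusted p = 0.626 in edgeR). It had 404, 397 and 374 counts in WT and 511, 496 and 521 in Gpr174-/Y. Cpa3, a mast cell protease, had 96, 80 and 52 counts in WT and 25, 31 and 37 in Gpr174-/Y (log2 fold change -1.63, SE 0.29, adjusted p = 0.00420). The other lower genes were Mcpt4 (-1.11), Hdc (-1.09), Tpsb2 (-1.07) and Cma1 (-0.85). With total counts, 3 of the 6 were lower and 1 was higher. The eosinophil marker Siglecf, removed by the filter, went the other way, with 2, 3 and 2 counts in WT and 8, 9 and 8 in Gpr174-/Y (log2 fold change 1.47, adjusted p = 0.0214 in the edgeR fit without the filter). Prg2, Mcpt8 and Fcer1a were not called in that fit. Il1rl1 was therefore higher in muscles in which 5 of the 6 tested genes of this list were lower on the TMM scale.

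Of 5 lymphocyte markers tested of 8, 0 passed in edgeR (15.1 to 27.1 CPM summed in WT and 24.5 to 26.8 in Gpr174-/Y). Fibroblast markers were split, with 3 of 9 higher, 5 lower and 1 not called, and a median of -0.21 that turned to 0.07 with total counts. Pi16 (-1.12) and Cd34 (-1.04) were lower, and the summed level, mostly collagen, was 12360 to 17260 CPM in WT and 20930 to 23960 CPM in Gpr174-/Y. Endothelial markers were lower in 9 of 10, with Vwf higher (median -0.78), and summed to 1112 to 1302 CPM in WT and 698 to 795 CPM in Gpr174-/Y.

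The tissue label was met by muscle genes in all libraries. Markers of mature fibres were lower in 14 of 14 (median -1.45, 13 past the fold limit), led by Myh2 (-2.80), Pvalb (-2.34), Mb (-2.02) and Myh1 (-1.76). They summed to 149200 to 210400 CPM in WT and 65760 to 73990 CPM in Gpr174-/Y. Of 8 genes of regenerating fibres, 6 were higher and 2 not called (median 1.13), led by Mymx (1.84), Chrng (1.68), Mymk (1.46) and Myog (1.42), from 2437 to 4912 CPM summed in WT and from 4797 to 5636 CPM in Gpr174-/Y. Keratinocyte genes, searched because skin makes interleukin-1 ligands, summed to 2.44 to 4.23 CPM, with 1 of 5 tested and not called, and Krt5 at 5, 6 and 5 counts in WT and 3, 0 and 0 in Gpr174-/Y (adjusted p = 0.0393 in the edgeR fit without the filter).

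Genes with the profile most like that of Il1b, Il33 and Il1rl1 were sought among 13636 genes with a mean of at least 1 CPM, by the root mean square difference of centred log2 CPM over 6 libraries. For Il1b these were Eme1 (0.131), Ccnb1 (0.158) and Fam83f (0.160). For Il33 they were Zfp595 (0.0228), Sap30 (0.0262) and Golt1b (0.0306), and for Il1rl1 Prkar2b (0.0588), Card9 (0.0599) and Cd37 (0.0604). All differences are between profiles over the same libraries, in which the groups differ widely.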

How the data were processed

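RNA from ischemic gastrocnemius of 3 WT and 3 Gpr174-/Y mice was sequenced on the BGISEQ platform that the methods name, while the labels name a TruSeq kit. The deposited table lists 58843 RefSeq transcripts, and for each library it gives the expected counts, the authors' estimates of reads, which are fractional and not normalized. The authors also deposited FPKM and TPM, both scaled for length and library size. The submitters' processing notes name HISAT2 2.0.4, Bowtie2 2.2.5, RSEM 1.2.12 and GRCm39, and strand use is not given in the sources used here. The authors' group means were not used, and 0 columns of single samples were left unmapped.

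All transcripts of an Entrez gene were added up and the sum rounded. This gave 18089 genes, and 18037 (99.7%) matched a symbol. Because RSEM divides reads among transcripts that share most of their bases, values of single transcripts are uncertain. Genes were compared with edgeR 4.0.16 in R 4.3.3 (filterByExpr, TMM factors, robust quasi-likelihood test and Benjamini-Hochberg adjustment), with limits of 0.05 on the adjusted p and 1 on the absolute log2 fold change. The SE is the log2 fold change divided by the square root of the F statistic. The common dispersion was 0.00967 for genes and 0.607 for the same fit over transcripts. Effective lengths were derived from counts and FPKM. TPM ratios were compared by exact permutation over all divisions of the libraries into groups of the same sizes, in Python 3.11.15. The script was tested on simulated data with known changes. The fit over genes found nearly all of them and the fit over transcripts few, so a transcript that was not called is not shown to be unchanged. These changes were placed only in genes and transcripts with more counts than Il1a, Il1b and Il1r2 have, at a common dispersion. Recovery at lower counts or wider spread was not tested, and a gene not called there is not shown to be unchanged.

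Alternatives were DESeq2 1.42.0 (size factors, Wald test), upper quartile, total counts, voom and log2(FPKM + 1 or 0.1) in limma 3.58.1, a minimum of 10 counts per library, no filter, a replicate block, leaving out each library, and replicates 1 and 3 only. Promoters and transcript structures are from RefSeq on GRCm38.p6 and GENCODE M21, which may differ from the records counted; annotated lengths are used where they fit the effective length, and no gene coordinates are printed.

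The 9 genes and 15 further lists were chosen with earlier results of these data known. By the rule fixed for named genes, all 9 members, Gpr174, genes of each list past both limits (up to 4 in each direction) and the 3 genes of nearest profile are named. Il1rl2, Il18r1, Il18rap, Il18bp, Sigirr, Nlrp3, Pycard, Casp1, Gsdmd, Txnip, Nek7, the signalling genes, Nfkbia, Dusp1, Rora, Foxp3, Csf3r, Cxcr2, Kit, Cma1, Prg2, Mcpt8, Fcer1a and Vwf were named after their values were seen. Other experiments of the study were not analysed here.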

Additional observations from a re-analysis of the deposited data

How the results depend on the processing

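Il1b, Il1rn, Il1r1, Il33, Il1rl1 and Il18 kept their direction and their call in 16 of 17 alternatives each and lost the call with replicates 1 and 3 of each group only. That fit called 0 of the 9 genes (6 at an unadjusted p under 0.05) and 0 of all genes (5026 unadjusted). It had fewer samples, and the cause of the loss was not tested. The log2 fold change of Il1b was 0.79 with limma on log2(FPKM + 1). Il1a was called in 6 of 14 alternatives, with log2 fold changes from -0.95 to -0.53 and adjusted p from 0.0207 to 0.322. When 1 library was left out, Il1rap ranged from -0.052 without Gpr174-/Y replicate 3 (adjusted p = 0.726) to 0.19 without Gpr174-/Y replicate 1, and total counts gave 0.36 (adjusted p = 0.0641). Between 6 and 7 of the 9 genes, and between 5457 and 9165 of all genes, were called when 1 library was left out. Over all genes, total counts gave 7303 higher and 2010 lower, limma on log2(FPKM + 1) 6817 and 1823, and on log2(FPKM + 0.1) 6798 and 1816, against 3891 and 3972 on the TMM scale. Member transcripts called were 3, against 1 with no filter, 0 with the replicate block (2 unadjusted), and 0 to 4 when 1 library was left out; the cause was not tested. The 4 ratios of TPM kept their direction in all alternatives run, although the log2 difference of Il33 to Il1rl1 was -0.34 with expected counts.

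Libraries with the same replicate number in both groups differ in genotype and so come from different mice. Within a group, the labels do not say whether each replicate is a separate mouse. Deviations from the group means of same-numbered libraries correlated at 0.00, -0.03 and -0.01 over 6543 abundant genes, and 1 of 6 libraries correlated best with its own number, so the numbers were not taken as pairs. With the replicate block, 6812 of all genes and 6 of the 9 were called, with Il1a at an adjusted p of 0.0571. The planned ratio of soluble to long Il1rl1 transcript gave no value from single transcripts, since the long one was at 0 in 5 of 6 libraries. Depth limits Il1a, Il1b and Il1r2, which had under 60 counts in every library.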
